A study of Rattus norvegicus with 16 samples.

Results

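Car3 and Pck1, genes that fat cells express along with muscle (Car3) or liver (Pck1), had their highest lung signals in spontaneously hypertensive (SH) rats exposed to sulfur dioxide (SO2), an irritant gas. The set described here holds 8 adipocyte genes: Car3, Pck1, Aqp7, Adipoq, Cfd, Lipe, Plin1 and Retn. They were selected on their signals over the 4 groups, with results of these data known, so their values in the comparisons below are a description and carry no test. Of the 8 genes, 6 had a probe set in the platform annotation used here, and Adipoq and Retn were not analysed here. The 6 genes had 7 probe sets, 2 of them for Car3, among 15866 probe sets and 10411 genes in all.

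Total RNA of lung was labelled with biotin and measured on 16 arrays, with 4 arrays for each strain and exposure. The strains were the SH rat, which is inbred and develops high blood pressure, and the outbred Sprague Dawley (SD) rat, and each was exposed to air as a control or to SO2. The submitters call the 4 arrays of each group biological replicates. The sources used here do not give dose, duration, time of sampling, age or sex, and the labels name no genetic modification. Signals are linear intensities, given per array and then as mean ± SD over 4 arrays (n = 4) unless stated otherwise. Differences are on the scale of log2(signal + 16), with the standard error (SE) of a limma fit to all 4 groups.

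In adipocytes, triglyceride is stored in a droplet coated by perilipin 1 (Plin1). When catecholamines raise cAMP, hormone-sensitive lipase (Lipe) moves to the droplet and releases fatty acids and glycerol, and glycerol leaves through the channel aquaporin 7 (Aqp7). Pck1, the cytosolic phosphoenolpyruvate carboxykinase, supplies glycerol phosphate for renewed storage in fat and controls glucose production in liver. Car3, carbonic anhydrase III, is abundant in fat and in slow skeletal muscle. Cfd encodes adipsin, complement factor D, which fat cells secrete. Lung tissue can come with fat cells from around the hilum and airways, and it has lipid-laden fibroblasts and macrophages.

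The promoter of Pck1 is shown because Pck1 had the largest fold between the strains in SO2 and because it is a textbook target of cAMP signalling. It is the sequence before the RefSeq start site on GRCr8 (chr3:182348322-182348571, plus strand, 250 bases). The first stretch in capitals is a nuclear receptor half-site (AGGTCA, 144 bases upstream of the start) and the second is a cAMP response half-site (CGTCA, 90 bases upstream).

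Pck1 promoter: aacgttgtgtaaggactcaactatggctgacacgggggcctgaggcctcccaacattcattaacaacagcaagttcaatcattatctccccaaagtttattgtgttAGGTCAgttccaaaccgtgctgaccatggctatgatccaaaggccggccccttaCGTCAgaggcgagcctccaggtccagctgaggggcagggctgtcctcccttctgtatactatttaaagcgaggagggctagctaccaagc

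The RefSeq promoter table held 5 of the 8 genes (Pck1, Adipoq, Cfd, Plin1 and Retn), of which 3 had a probe set here. Each of these 3 held CGTCA on 1 strand, and Adipoq and Retn did not hold it. It was in 22.0% of the 27457 promoters in the table. The 25 bases around each match are given 5′ to 3′ along the gene, with the match in capitals. In Cfd (123 bases upstream) and Plin1 (140 bases upstream) the match lies on the opposite strand and reads TGACG.

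Pck1, chr3:182348472-182348496, plus strand: cggccccttaCGTCAgaggcgagcc
Cfd, chr7:10465605-10465629, minus strand: ccagaagggcTGACGcatggagaac
Plin1, chr1:143086274-143086298, minus strand: acagctatggTGACGggctggccca

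AGGTCA was found in Pck1 and in Retn (169 and 7 bases upstream) and in 15.7% of all promoters. CCAAT was found in Adipoq (69 and 42 bases upstream) and Plin1 (207 bases upstream) and in 37.7% of all promoters. Both strands were searched over 250 bases before and 50 after the start. The paired site of PPAR gamma with its partner RXR (AGGTCA, any base, AGGTCA), TTGCGCAA for C/EBP factors, AGAACA for the glucocorticoid receptor and TATAAA were in none of the 5 promoters. They were in 0.0583%, 0.197%, 20.1% and 14.3% of all promoters. These are matches of letters, and binding was not measured.

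Array quality can affect dim probe sets, and Plin1, Aqp7, Pck1 and the second Car3 probe set are among the dimmer ones here. Its part in their values was not tested. The 10th percentile of signal lay between 17.6 and 21 on SH air arrays, between 17 and 26.8 on SH SO2 arrays, between 17.4 and 24.3 on SD air arrays and between 17.8 and 25.5 on those of SD SO2. For actin, the ratio of 3′ to 5′ signal, a sign of RNA quality, reached 2.36 (air) and 3.12 (SO2) in SH rats and 1.76 (air) and 2.94 (SO2) in SD rats. The library labelled SD air replicate 2 stood apart: Terf2ip, a telomere-binding protein gene with a strain difference, had a signal of 693.8 there. The other SD air arrays had at least 1982.2, and SH air arrays had 424.8 to 733.2. The differences, medians and counts below that use SD rats in air are therefore given with and without this array. Lung markers were bright in every group, with mean surfactant protein C (Sftpc) signals of 25300 to 30870 by group.

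Car3 had the clearest pattern. With its first probe set, 1367896_at, the signals in SH rats were 326.4, 289.2, 387.6 and 341.3 in air and 677.5, 675.7, 533.3 and 462.6 in SO2. All 4 SO2 arrays lay above all 4 air arrays. Mean signals were 336.1 ± 40.7 in air and 587.3 ± 107 in SO2, a ratio of 1.75 and a log2 difference of 0.77 (SE 0.15). In SD rats the same probe set gave 338.2, 351.9, 414.1 and 292.1 in air and 260.9, 306.1, 274.7 and 270.0 in SO2. The SD groups overlapped, with 3 of the 4 SO2 arrays below the lowest air array. Means were 349.1 ± 50.3 in air and 277.9 ± 19.6 in SO2, a ratio of 0.796 and a log2 difference of -0.30 (SE 0.15), and without SD air replicate 2 this difference was -0.298 (SE 0.166).

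The order of the 4 group means for this probe set was SH SO2, SD air, SH air and SD SO2. The SH SO2 arrays overlapped no other group, whereas the strains overlapped in air (-0.049, SE 0.15; -0.042 without SD air replicate 2). In SO2 the SH signal was 2.11 times the SD signal, with a log2 difference of 1.02 (SE 0.15) and no overlap. The SO2 effect was 1.07 higher in SH than in SD rats (SE 0.212), and 1.06 higher (SE 0.227) without SD air replicate 2. Leaving out each array in turn kept the SO2 difference in SH rats between 0.693 and 0.872.

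The second Car3 probe set, 1386977_at, was dimmer and more scattered. Its signals in SH rats were 155.0, 88.6, 136.1 and 218.1 in air and 178.1, 276.1, 189.2 and 144.6 in SO2. These groups overlapped, with means of 149.4 ± 53.6 and 197.0 ± 56 and a log2 difference of 0.39 (SE 0.347). This value was 0.187 without SH air replicate 2, 0.225 without SH SO2 replicate 2 and 0.575 without SH air replicate 4. Its signals in SD rats were 198.4, 159.1, 139.9 and 115.1 in air and 26.1, 104.1, 118.2 and 131.9 in SO2. The value of 26.1 on SD SO2 replicate 1 was far below the other 3, and this array carries much of the SD difference of -0.73 (SE 0.347), which was -0.317 without it and -0.709 without SD air replicate 2. In SO2 the SH arrays lay above the SD arrays without overlap, at 197.0 ± 56 against 95.07 ± 47.4 (1.05, SE 0.347), and without SD SO2 replicate 1 the difference was 0.638. Both Car3 probe sets thus had the same signs in all 5 comparisons, with unequal sizes in the comparisons of SO2 with air. The comparisons share arrays, and between the strains in air both values were near 0 (-0.049 and -0.067). Leaving out 1 array turned the sign of either there (up to 0.0331 and 0.134), so agreement in that comparison says little.

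Pck1 had the largest ratios of the fitted probe sets for SO2 against air in SH rats and for the strains in SO2. Its signals in SH rats were 163.6, 170.7, 154.9 and 172.4 in air and 313.0, 407.0, 332.7 and 230.3 in SO2. The air arrays were tightly grouped and all 4 SO2 arrays lay above them, at 320.8 ± 72.6 against 165.4 ± 7.97, a ratio of 1.94 and a log2 difference of 0.87 (SE 0.281). In SD rats the signals were 77.9, 128.0, 176.7 and 274.2 in air and 214.2, 114.9, 116.1 and 122.9 in SO2. The SD air arrays spanned the widest range of the 4 groups and covered all SD SO2 arrays. Means were 164.2 ± 83.7 in air and 142.0 ± 48.2 in SO2 (-0.11, SE 0.281; -0.181 without SD air replicate 2).

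In SO2 Pck1 was 2.26 times as high in SH as in SD rats, with no overlap (1.11, SE 0.281). In air the strains overlapped, with a log2 difference of 0.13 (SE 0.281; 0.0606 without SD air replicate 2). The difference between the SO2 effects was 0.98 (SE 0.397; 1.05 without that array). Deviations of Pck1 from the group means had no relation past the threshold with those of the array's 10th percentile, a measure of background. Pearson's r was 0.662 (permutation p = 0.0151, adjusted p = 0.328), and 0.693 without the 2 arrays farthest from the median Pck1 deviation. Spearman's rho was 0.762 (permutation p = 0.00259, adjusted p = 0.163). With the log2 of that percentile as a covariate, the SO2 difference in SH rats was 0.617 and that between the SO2 effects was 0.831. With the running number from the titles as a covariate, these values were 0.385 and 0.413, and the difference between the strains in air was 0.61. The title numbers separate SH air from SH SO2 fully, so number and exposure cannot be told apart in SH rats. In SD air the Pck1 signals rose in the order of the title numbers, from 77.9 to 274.2.

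**Figure D1:**
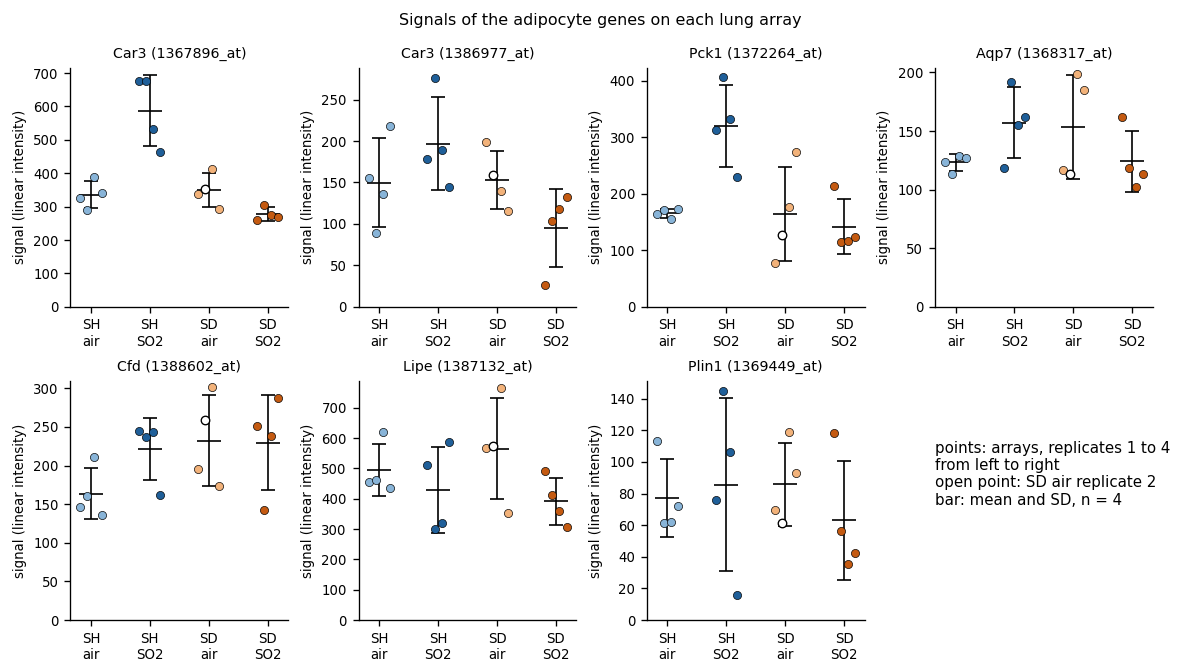
Signal (linear intensity) of each of the 7 probe sets on each of the 16 arrays, by group; bars are the mean and SD of 4 arrays and the open point is SD air replicate 2. For Car3 (first probe set) and Pck1 the 4 SH SO2 points lie above all SH air and SD SO2 points, whereas Aqp7, Cfd, Lipe and Plin1 overlap in every pair of groups. For Pck1 the SH SO2 points (lowest 230.3) overlap those of SD air (highest 274.2).

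Aqp7, through which glycerol leaves the adipocyte, had signals of 124.0, 113.2, 129.1 and 127.0 in SH air and 118.4, 192.2, 155.3 and 162.0 in SH SO2. Of the SO2 arrays, 3 lay above all air arrays and 1 lay among them, with means of 157.0 ± 30.3 and 123.3 ± 7.07 (0.30, SE 0.231). In SD rats the signals were 116.8, 113.3, 199.1 and 184.7 in air and 162.0, 118.7, 102.3 and 113.3 in SO2. The SD air arrays fell into a low pair (title numbers 45 and 46) and a high pair (54 and 55), and the part of that order was not tested. Means were 153.5 ± 44.8 in air and 124.1 ± 26.2 in SO2 (-0.25, SE 0.231, and -0.371 without SD air replicate 2). Between the strains the Aqp7 difference was 0.30 in SO2 and -0.25 in air (-0.363 without SD air replicate 2), with overlap in both. Once the title number was a covariate, the SH difference was -0.171 and the strain difference in air was 0.222, so both signs depend on that choice. The Aqp7 difference between the SO2 effects was 0.55 (SE 0.327; 0.667 without SD air replicate 2), and it was 0.000168 with the title number as a covariate.

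Cfd, the gene of adipsin, had signals of 145.9, 160.9, 211.1 and 136.3 in SH air and 244.5, 236.6, 244.0 and 161.6 in SH SO2. Here 3 SO2 arrays lay above all air arrays and replicate 4 did not, with means of 221.7 ± 40.2 and 163.6 ± 33.3 (0.40, SE 0.227). Signals in SD rats were 195.2, 259.4, 301.2 and 173.9 in air and 251.2, 142.6, 238.0 and 287.5 in SO2. These SD means were nearly equal, at 232.4 ± 58.5 and 229.8 ± 61.8, and the log2 difference of -0.025 (SE 0.227) was 0.0344 without SD air replicate 2. SH SO2 arrays were level with SD SO2 arrays in Cfd (-0.026), and SH air arrays were lower on average than SD air arrays with overlap (-0.46, SE 0.227; -0.396 without SD air replicate 2). Cfd therefore differs from Car3 and Pck1 in the order of its groups, with SH air as the lowest mean.

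Lipe, the hormone-sensitive lipase, had a lower mean in SO2 than in air in both strains. Its signals were 456.1, 460.8, 620.9 and 436.4 in SH air and 510.5, 299.5, 320.5 and 587.9 in SH SO2. The SO2 arrays split into a high and a low pair on either side of most air arrays, with means of 429.6 ± 142 and 493.6 ± 85.6 (-0.24, SE 0.228). This value was -0.0882 without SH SO2 replicate 2, -0.119 without SH SO2 replicate 3 and -0.124 without SH air replicate 3, and it was -0.0361 with the 10th percentile and 0.00788 with the title number in the fit. In SD rats the signals were 568.2, 574.7, 765.0 and 354.0 in air and 490.0, 411.4, 357.9 and 307.7 in SO2. The SD means were 565.5 ± 168 in air and 391.8 ± 78 in SO2 with overlap (-0.48, SE 0.228; -0.458 without SD air replicate 2). Between the strains Lipe had 0.092 in SO2 and -0.16 in air (-0.131 without SD air replicate 2), with overlap in both.

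Plin1, the droplet coat protein, did not pass the filter that leaves out the dimmest 30% of probe sets, and it was not fitted. Its signals were 113.1, 61.4, 61.8 and 72.0 in SH air and 75.8, 144.9, 106.5 and 15.6 in SH SO2. The value of 15.6 lay under that array's 10th percentile of 17. Signals in SD rats were 69.6, 61.2, 119.1 and 93.1 in air and 118.3, 56.4, 35.7 and 42.4 in SO2. Every pair of groups overlapped in Plin1.

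Across the 6 probe sets of 5 genes that passed the filter, the median difference of SO2 from air was 0.395 in SH and -0.275 in SD rats (-0.334 without SD air replicate 2). The median over all 11106 probe sets was 0.017 in both strains (0.00878 in SD rats without that array). Values lay above 0 for 5 of the 6 in SH rats, all but Lipe, and below 0 for 6 of the 6 in SD rats (5 of the 6 without SD air replicate 2, where Cfd had 0.0344). The sign of Aqp7 in SH rats turned with the title number in the fit (-0.171), as did that of Lipe. The strain difference had a member median of -0.114 in air (-0.087 without SD air replicate 2) and 0.66 in SO2, against 0.00096 (-0.0098) and 0.00042 over all probe sets. The median difference between the SO2 effects was 0.765, against 0.0011 (0.858 against 0.01 without SD air replicate 2). The comparisons share arrays, so these medians are not independent of each other, and the genes were chosen with them known.

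A probe set was called at a Benjamini-Hochberg adjusted p under 0.05 in limma. For SO2 in SH rats 0 of the 6 were called, and 0% of all probe sets were; 4.84% had an unadjusted p under 0.05. For SO2 in SD rats 0 of the 6 and 0% of all were called, with 8.24% at an unadjusted p under 0.05 (8.27% without SD air replicate 2, with 0 called). For the difference between the SO2 effects 0 of the 6 and 0% of all were called, with 4.65% at an unadjusted p under 0.05 (5.91% without that array, with 0 called). For SH against SD rats in air 0 of the 6 and 0% of all were called, with 6.38% at an unadjusted p under 0.05. Without SD air replicate 2, 0 of the 6 and 0.774% of all probe sets were called in air, and 9.72% had an unadjusted p under 0.05. For SH against SD rats in SO2, 1 of the 6 was called as higher, Car3 (first probe set), against 0.405% of all probe sets called as higher and 0.405% as lower, 0.81% together. An unadjusted p under 0.05 was reached by 10.1% of all in this comparison. Because the choice of genes used these comparisons, nothing is read from the counts.

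Groups that did not overlap on any array, with SO2 above air in SH rats, were seen for 2 of the 6 (Car3, first probe set, and Pck1) and for 2.15% of all probe sets, and the reverse for 0 of the 6 and 2.02% of all. SH above SD in SO2 without overlap was seen for 3 of the 6, both Car3 probe sets and Pck1, and for 2.82% of all, and the reverse for 0 of the 6 and 2.76% of all. For SO2 in SD rats the count was 0 of the 6 in either direction, against 2.07% of all higher and 1.47% lower (3.82% and 3.01% without SD air replicate 2, again with 0 of the 6). In air the strains overlapped for all 6, against 1.96% of all probe sets without overlap as higher and 2.06% as lower (5.73% and 5.6% without SD air replicate 2, again with 0 of the 6).

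**Figure D2:**
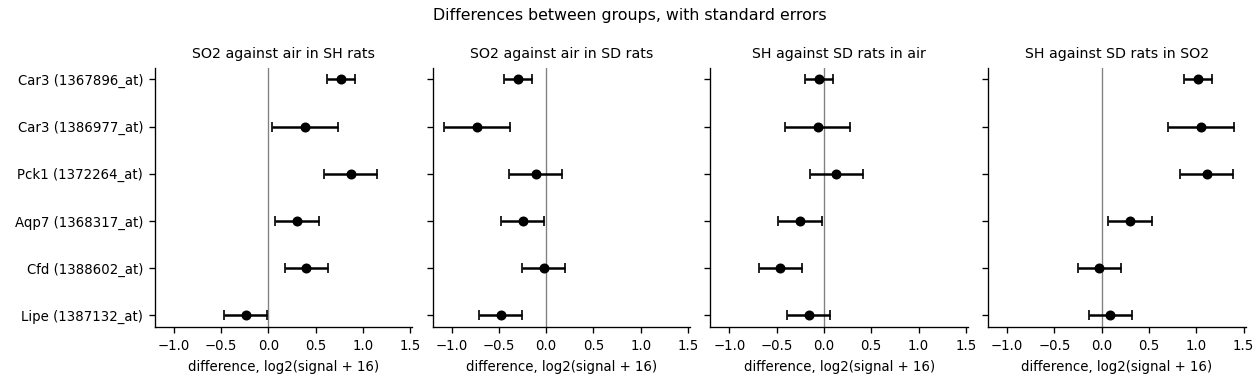
Differences between groups on the log2(signal + 16) scale for the 6 probe sets that passed the filter, with 1 standard error on either side; the line marks 0. Car3 (first probe set, 0.77) and Pck1 (0.87) are the highest in SO2 against air in SH rats, and both Car3 probe sets and Pck1 lie near 1 in SH against SD rats in SO2.

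Within groups, no pair of the genes varied together past the threshold. Pearson's r was taken over 16 arrays on log2 values after each group mean was removed, with 100000 permutations within groups, two-sided. Where 2 far arrays are left out, they are the 2 farthest from the median deviation of the probe set named first. The 21 pairs of members and 42 pairs of a member with another gene or an array measure made 63 relations, and 0 of the 63 had an adjusted p under 0.05. The 2 Car3 probe sets had r = 0.393 (permutation p = 0.077, adjusted p = 0.574; rho = 0.353, permutation p = 0.182, adjusted p = 0.665; r = 0.406 without the 2 arrays farthest from the median). The relation of Car3 (first probe set) with Pck1 was near 0 (r = -0.00819, permutation p = 0.981, adjusted p = 0.997; rho = 0.0324, permutation p = 0.922, adjusted p = 0.969; r = -0.268 without the 2 far arrays). The 4 SH SO2 arrays were thus high in both genes, while inside the groups no relation of Car3 with Pck1 was seen past the threshold. With 4 arrays in each group, a moderate relation cannot be told from none.

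Pck1 and Aqp7 had the largest correlation among members, with r = 0.722 (permutation p = 0.0293, adjusted p = 0.452) and rho = 0.629 (permutation p = 0.0502, adjusted p = 0.448). It was 0.659 without the 2 far arrays and 0.732 without SD air replicate 2. Pck1 and Plin1 had r = 0.63 (permutation p = 0.0065, adjusted p = 0.328) and rho = 0.724 (permutation p = 0.00727, adjusted p = 0.201), and r = 0.868 without the 2 far arrays. None of the 7 probe sets passed the threshold with the 10th percentile. Plin1 had r = 0.729 with it (permutation p = 0.0156, adjusted p = 0.328; rho = 0.721, permutation p = 0.00956, adjusted p = 0.201; r = 0.498 without the 2 far arrays). Aqp7 had r = 0.436 (permutation p = 0.163, adjusted p = 0.574; rho = 0.412, permutation p = 0.178, adjusted p = 0.665; r = 0.391 without them), and Lipe had the opposite sign with r = -0.617 (permutation p = 0.0359, adjusted p = 0.452; rho = -0.594, permutation p = 0.0433, adjusted p = 0.448; r = -0.406 without them). The part of background in these relations was not tested. Car3 had r = 0.0636 with that percentile (rho = -0.126, r = -0.306 without the 2 far arrays) and 0.185 with the actin ratio (rho = 0.179, r = 0.31 without them), with permutation p of 0.863 and 0.615 and adjusted p of 0.97 and 0.89 for r.

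**Figure D3:**
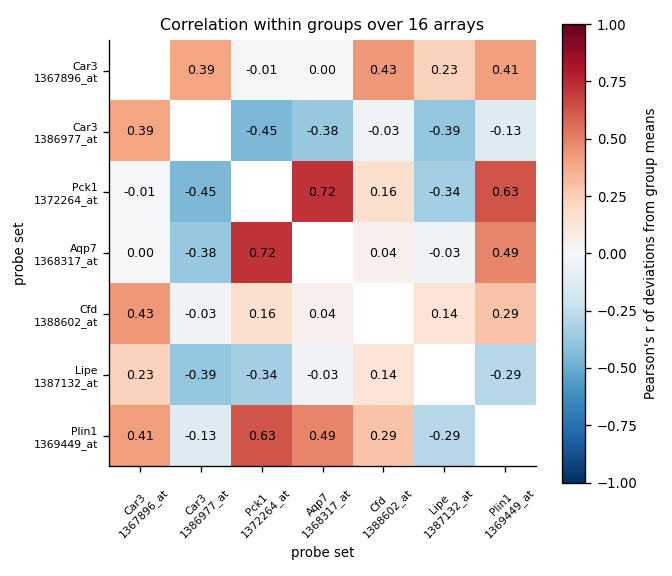
Pearson's r between the 7 probe sets over 16 arrays, computed on deviations from the group means (colour scale from -1 to 1). Pck1 with Aqp7 (0.722) and Pck1 with Plin1 (0.63) are the largest, and Car3 (first probe set) with Pck1 is near 0.

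No other member was among the genes whose within-group pattern was most like that of Car3 (first probe set). Of 8059 other genes, the 10 with the largest r were C9h6orf226 (0.857), Cyp27a1 (0.837), Rasa2 (0.818), Arhgef1 (0.807), Chmp7 (0.78), Atp13a2 (0.772), Smtn (0.761), Adarb1 (0.739), Uvrag (0.738) and C5h1orf122 (0.737). The 95th percentile of r over all genes was 0.461, and 2 genes measured on the same arrays share the background of those arrays. Cyp27a1 is the sterol 27-hydroxylase of bile acid synthesis, Rasa2 turns off Ras, and Smtn encodes smoothelin of contractile smooth muscle. Of the 10, 2 (Adarb1 and Uvrag) had the signs of Car3 in all 5 comparisons, though Car3 itself was near 0 between the strains in air (-0.049). SO2 against air was 0.09 in SH and -0.39 in SD rats for Adarb1 and 0.07 and -0.16 for Uvrag, with strain differences in SO2 of 0.35 and 0.13. It was 0.46 in SH and 0.48 in SD rats for Rasa2, 0.41 and 0.16 for Smtn and -0.04 and -0.17 for C9h6orf226.

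In the wider lists of fat cell genes Cd36 was called between the strains in SO2. Of 62 other genes measured in 7 lists of fat cell biology, 50 passed the filter. For SO2 in SH rats 0 of the 50 were called, with 22 above and 28 below 0, a median of -0.028 and 5 at an unadjusted p under 0.05. In SD rats 0 of the 50 were called, with 26 above and 24 below 0, a median of 0.0092 and 2 at an unadjusted p under 0.05 (25 and 25, a median of -0.00561 and again 2 without SD air replicate 2). Between the strains in SO2, 1 of the 50 was called, Cd36, as lower in SH rats, with a list median of 0.018 and 7 at an unadjusted p under 0.05, beside 0.81% and 10.1% of all probe sets. In air and for the difference between the SO2 effects 0 of the 50 were called, with 5 and 2 at an unadjusted p under 0.05. Without SD air replicate 2, 3 of the 50 were called in air, all as lower in SH rats, beside 0.774% of all probe sets, and 6 had an unadjusted p under 0.05. These were Cd36 (-1.77), Rbp4 (-1.44, limma adjusted p = 0.0149), a retinol carrier that fat secretes, and Cox7a1 (-0.73, limma adjusted p = 0.0327). For the difference between the SO2 effects 0 of the 50 were called without that array, and 4 had an unadjusted p under 0.05.

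Among the regulators of fat cell formation, all 9 passed the filter and 0 were called, with medians of -0.12 in SH and -0.091 in SD rats (-0.0733 without SD air replicate 2). Pparg, the central regulator, had values of 0.11 (SE 0.215) and -0.09 (SE 0.215; 0.011 without SD air replicate 2). Klf15, which acts on genes of gluconeogenesis and is raised by glucocorticoids, had -0.63 and -0.29, and Cebpb had -0.12 and -0.29; the SD values were -0.089 and -0.14 without that array. Of 17 genes of lipid storage and breakdown 16 passed, with medians of -0.021 in SH and -0.078 in SD rats (-0.0592 without SD air replicate 2). Of 8 genes of fatty acid synthesis 7 passed, with medians of 0.015 and 0.11 (0.0839). Fasn, the fatty acid synthase, had -0.19 and 0.042 (0.084), and Acly, which makes cytosolic acetyl-CoA, had 0.015 and 0.075 (0.019).

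Of 5 genes of glycerol handling 2 passed, Pck2 and Pc. Pck2, the mitochondrial counterpart of Pck1, differed from it in the order of its groups. Its mean signals were 270.5 (air) and 166.3 (SO2) in SH rats and 148.7 (air) and 344.4 (SO2) in SD rats, with differences of -0.86 (SE 0.391) in SH and 1.11 (SE 0.391; 1.23 without SD air replicate 2) in SD rats, neither called. Pc, pyruvate carboxylase, had -0.11 and -0.098 (-0.13). Of 8 genes of adipokines and their receptors 6 passed, with medians of -0.22 in SH and -0.0083 in SD rats (-0.043). Lcn2, which epithelium and neutrophils also secrete, had -0.89 (SE 0.312) in SH rats and 0.0098 in SD rats (0.091), and Adipor1, an adiponectin receptor, had 0.044 and -0.23 (-0.2). Values in brackets here are again those without SD air replicate 2.

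Of 9 genes of insulin and catecholamine input 7 passed, with medians of 0.15 in SH and 0.12 in SD rats (0.182 without SD air replicate 2). Prkar2b, a regulatory subunit of protein kinase A, had 0.11 and 0.23 (0.29), and Irs2 of the insulin pathway had -0.085 and 0.12 (0.18). Of 6 brown fat genes 3 passed, with medians of 0.033 and 0.036 (-0.145). Cox7a1 had -0.031 and 0.042 (-0.15), and Cox8b had 0.033 and -0.35 (-0.26); both encode respiratory chain subunits of muscle and brown fat. The alternative complement pathway, in which adipsin acts, had 4 of 4 genes past the filter and 0 called, with C3 at -0.21 and 0.17 (0.18) and Cd55 at -0.099 and 0.03 (0.061).

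Among 10 other carbonic anhydrases 5 passed and 0 were called, with medians of -0.16 in SH and -0.2 in SD rats (-0.287 without SD air replicate 2). Car4, the membrane-bound enzyme of lung capillaries, had 0.071 and -0.29 (-0.33), and Car2, the main cytosolic enzyme, had -0.16 and -0.27 (-0.29). Without SD air replicate 2, Car8, a relative without enzyme activity, was called as lower in SH than in SD rats in air (-0.7, limma adjusted p = 0.0388).

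Cd36, the fatty acid transporter, was lower in SH than in SD rats in SO2 (log2 difference -2.45, SE 0.345; limma adjusted p = 0.000731). Its signals were 208.8, 234.4, 300.5 and 305.1 in SH SO2 and 1394.9, 875.4, 2344.6 and 1680.8 in SD SO2, with no overlap. The call was kept under 27 of 27 other analysis choices, with adjusted p from 0.000102 to 0.00474. Cd36 thus lay opposite to Car3 and Pck1 in this comparison. In air Cd36 had means of 526.7 ± 264 in SH and 1493 ± 775 in SD rats (-1.43, SE 0.345; limma adjusted p = 0.179, not called), with 655.1 on SD air replicate 2 and at least 1210.6 on the other 3 SD air arrays. Without that array the air difference was -1.77 (SE 0.32; limma adjusted p = 0.0107) and was called.

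Several fat cell markers were dim, but not all. Cidea, of the lipid storage list, ranged from 194.4 to 329.7, beside array medians of 250.2 to 281.8, and overlapped between all groups. The member Lipe lay above the array median on all 4 arrays of each group. Lep, Fabp4, Ucp1, Plin4, Adrb3 and Cidea were chosen after their values were seen. Lep, the leptin gene, lay under the array's 10th percentile on 14 of 16 arrays (7.8 to 23.8), which is a level at background. Fabp4, the fatty acid binding protein of adipocytes, ranged from 50.4 to 190.6, with means of 110.9 ± 46.5 (air) and 133.9 ± 45.8 (SO2) in SH rats and 109.8 ± 39.1 (air) and 140.9 ± 38.6 (SO2) in SD rats. Fabp4 overlapped between all groups and was as high in SD SO2 as in SH SO2. The summed signal of the 6 measured members was 1256 to 1565 (air) and 1620 to 1956 (SO2) in SH rats and 1366 to 1975 (air) and 1125 to 1497 (SO2) in SD rats (1 probe set per gene). In bulk lung RNA, fewer cells of a type and less RNA per cell cannot be told apart.

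Lep and Fabp4 had their highest mean in SD SO2, while Ucp1, Plin4, Adrb3 and Cidea (281.8 ± 38.6) had theirs in SH SO2. Lep means were 13.55 ± 3.84 (air) and 12.05 ± 3.64 (SO2) in SH rats and 12.3 ± 4.51 (air) and 17.97 ± 5.85 (SO2) in SD rats. Ucp1, the uncoupling protein of brown fat, gave 43.3, 53.5, 38.6 and 11.5 in SH air and 130.0, 125.6, 150.1 and 98.2 in SH SO2, with no overlap. In SD rats Ucp1 overlapped, from 45.4 to 124.8 in air and from 30.4 to 139.7 in SO2. Plin4, another droplet coat protein, had means of 73.15 ± 53.9 (air) and 179.4 ± 62.9 (SO2) in SH rats and 133.7 ± 106 (air) and 90.18 ± 48.1 (SO2) in SD rats, with overlap. Ucp1 and Plin4 did not pass the filter and were not fitted. Adrb3, the beta-3 adrenergic receptor of fat, was fitted, with 141.7 ± 41.9 in SH air and 217.4 ± 65.9 in SH SO2 (0.56, SE 0.319, not called) and 144.1 ± 68.6 (air) and 127.4 ± 50.6 (SO2) in SD rats (-0.11; -0.35 without SD air replicate 2). Car3 had r = -0.245 with Ucp1 (rho = -0.506; r = -0.293 without the 2 far arrays) and r = -0.144 with Plin4 (rho = -0.159; r = -0.194) over the 16 arrays within groups. Permutation p was 0.318 and 0.59 for r (adjusted p = 0.739 and 0.89) and 0.0418 and 0.564 for rho (adjusted p = 0.448 and 0.842).

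**Figure D4:**
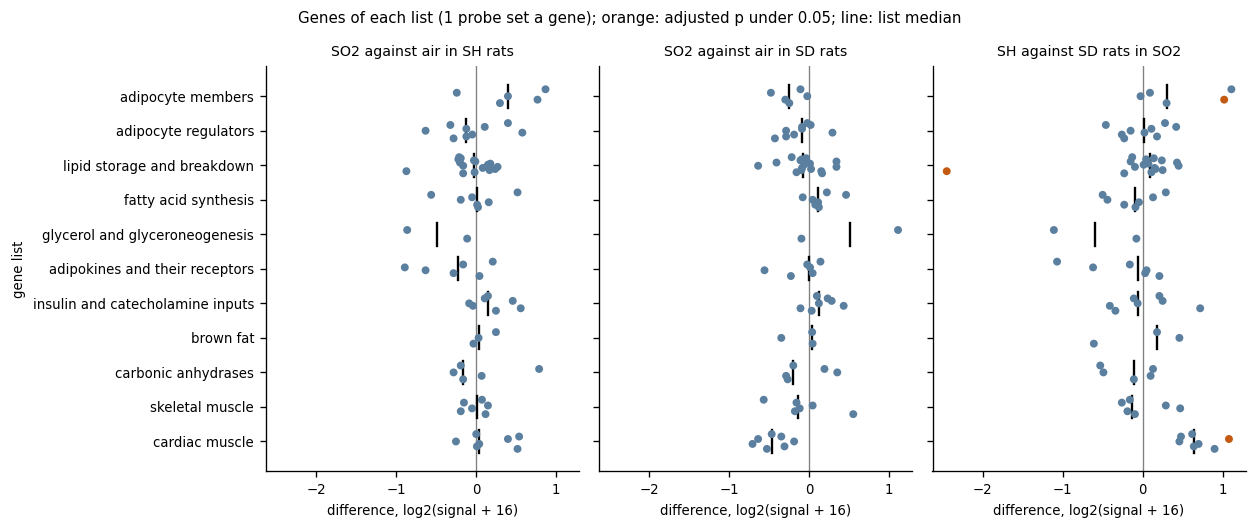
Differences on the log2(signal + 16) scale for each gene of 11 lists (1 probe set per gene, past the filter) in 3 comparisons; short lines are list medians and orange points have an adjusted p under 0.05. In SH against SD rats in SO2, 4 of 5 member genes and 7 of 7 cardiac muscle genes lie above 0, with Cfd at -0.026, and the called point on the left is Cd36 (-2.45).

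Muscle markers were checked because Car3 is also a muscle gene. Of 13 skeletal muscle genes 6 passed and 0 were called, and Myh7, the slow myosin, lay under the array's 10th percentile on 13 of 16 arrays. The summed skeletal signal was 1808 to 2013 (air) and 1841 to 2119 (SO2) in SH rats and 1619 to 2191 (air) and 1788 to 2029 (SO2) in SD rats. Of 9 cardiac muscle genes 7 passed. Rat pulmonary veins carry sleeves of heart muscle. In SO2 against air the cardiac median was 0.041 in SH and -0.47 in SD rats (-0.475 without SD air replicate 2), with 6 of 7 above 0 in SH and 7 of 7 below 0 in SD rats. In SH against SD rats in SO2, 7 of 7 were above 0 with a median of 0.64, and 1 of 7 was called as higher, beside 0.405% of all probe sets. The difference between the SO2 effects had a cardiac median of 0.75 with 6 of 7 above 0 (0.849 and 7 of 7 without SD air replicate 2), beside the members' 0.765.

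The called cardiac gene was Tcap, which encodes telethonin of the sarcomere. Its signals were 471.1, 580.9, 504.2 and 636.0 in SH SO2 and 191.0, 260.8, 261.4 and 297.3 in SD SO2, with no overlap (1.08, SE 0.245; limma adjusted p = 0.0407). It was called under 14 of 27 other analysis choices, with adjusted p from 0.00773 to 0.134. The call was lost without any 1 of the 8 arrays compared (limma adjusted p = 0.0596 to 0.134), and without SH air replicate 2 (0.0528) or 4 (0.0548). The summed cardiac signal was 2719 to 4271 (air) and 2944 to 4692 (SO2) in SH rats and 2566 to 5086 (air) and 1685 to 3042 (SO2) in SD rats. The cardiac median had the sign of Car3 for SO2 in each strain, between the strains in SO2 and for the difference between the SO2 effects. For SO2 in SH rats it was 0.041, beside 0.017 over all probe sets and 0.77 for Car3. Between the strains in air the signs were opposite, at 0.04 for the cardiac median and -0.049 for Car3 (0.0413 and -0.042 without SD air replicate 2). Car3 had r = 0.48 with Tcap within groups (permutation p = 0.0823, adjusted p = 0.574; rho = 0.406, permutation p = 0.141, adjusted p = 0.665; r = 0.561 without the 2 far arrays), and the part of cardiac tissue in the Car3 values was not tested.

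**Figure D5:**
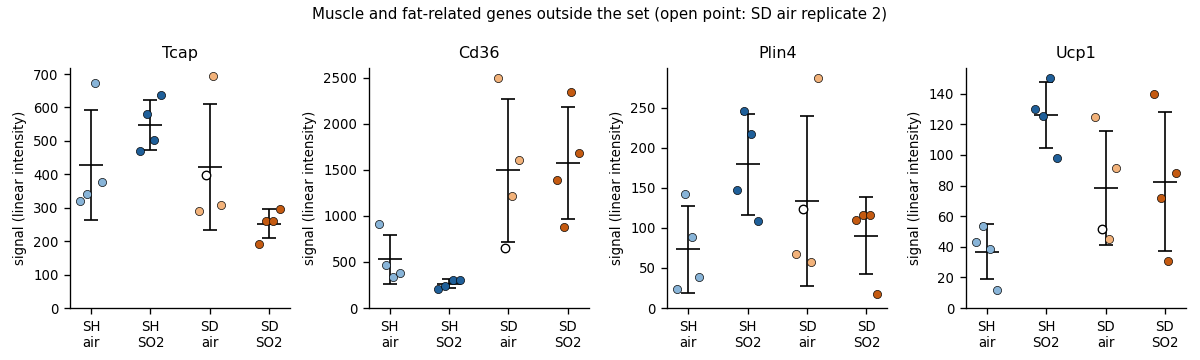
Signal (linear intensity) of Tcap, Cd36, Plin4 and Ucp1 on each of the 16 arrays by group, with mean and SD of 4 arrays; the open point is SD air replicate 2. The 4 SH SO2 points lie above all SD SO2 points in Tcap, below them in Cd36 and above all SH air points in Ucp1.

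Markers of other cell types were read beside the shares of all probe sets called, which were 0% in 4 of the 5 comparisons and 0.81% between the strains in SO2. Of these markers 0 were called in any of the 5 comparisons, and Col3a1, a collagen of fibroblasts, was called in air without SD air replicate 2 (-0.65, limma adjusted p = 0.0459; lower in SH rats). In SO2 against air the list medians in SH and SD rats were 0.095 and 0.52 (0.472 without SD air replicate 2) for liver (2 of 7 genes passed), 0.16 and 0.012 (0.367) for neutrophils and -0.37 and 0.0099 (0.0231) for macrophages. They were 0.17 and -0.19 (-0.261) for fibroblasts and lipofibroblasts, 0.23 and 0.15 (0.0163) for T and B cells, -0.056 and 0.038 (0.0268) for lung epithelium and -0.029 and -0.12 (-0.0583) for endothelium. Liver was included because Pck1 is a liver gene, and its marker Apoa1 lay under the array's 10th percentile on 15 of 16 arrays. The summed liver signal overlapped between all groups, from 629.3 to 1154. Of the fibroblast genes 5 of 6 lay above 0 in SH and 5 of 6 below 0 in SD rats, the same signs as most members, and their part in the member values was not tested.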

How the data were processed

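Lung total RNA was measured on 16 arrays, 4 in each group. The deposited table holds 1 linear intensity per probe set and array; the submitters' processing notes name GCOS (version and algorithm not given in the sources used here). Means trimmed by 2% at either end over all 15923 probe sets were 500.099 to 500.111 on the 16 arrays, so the deposited scaling was kept. Without 57 controls, 15866 probe sets were left: 12783 had 1 symbol in the annotation, 312 several and 2771 none.

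Values were log2(intensity + 16), which understates changes of dim probe sets. The 30% with the lowest mean log2 were left out, leaving 11106 probe sets (8060 genes with 1 symbol). Limma 3.58.1 in R 4.3.3 fitted 1 mean per group (12 residual degrees of freedom, eBayes with a trend), with Benjamini-Hochberg adjustment over the 11106. The fit was tested on simulated data. Alternatives were offsets of 1 and 64, quantile normalization, centring on medians, no filter or the lowest 50% left out, only the groups compared, a replicate block, title number, each array left out and, chosen after seeing the data, the actin ratio and the 10th percentile as covariates. Same-numbered arrays did not deviate together (r from -0.433 to 0.151), so the numbers were not taken as pairs.

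The members and lists were chosen with earlier results of these data known. Named were all members, and of each other list up to 4 called genes of smallest p or otherwise some of the 2 with the highest mean, by the probe set with the highest mean per gene; the 10 genes most like Car3 were ranked by Pearson's r. Terf2ip, Pparg, Lep, Fabp4, Ucp1, Plin4, Adrb3, Cidea, Myh7, Apoa1, Rbp4, Cox7a1 in air, Car8 and Col3a1 were chosen after their values were seen. Promoters are from RefSeq (GRCr8). Correlations and figures were made in Python 3.11.15 with matplotlib 3.10.9. The number of arrays limits the precision, and the p-values rest on the spread between these arrays.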

Additional observations from a re-analysis of the deposited data

Results flagged for a closer look

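Within the groups of 4, an array far from the other 3 was looked for in each of 28 combinations of a member probe set and a group, with a gap over the range above Dixon's 95% critical value; chance gives about 1 in 20. There were 3 such values. The Pck1 signal of SD SO2 replicate 1 was 214.2, against 114.9 to 122.9 on the other 3 arrays (gap over range 0.919), and it lies in the group that is compared with SH SO2. The Cfd signal of SH SO2 replicate 4 was 161.6, against 236.6 to 244.5 on the others (0.905), and that array also had the lowest SH SO2 signals of both Car3 probe sets, Pck1 and Plin1. The Lipe signal of SH air replicate 3 was 620.9, against 436.4 to 460.8 on the others (0.868).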

How the results depend on the processing

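Of 592 member differences recomputed under other choices, 585 stayed within 1 SD and 7 moved further. Of the 7, 6 were Pck1 and Aqp7 with the title number as a covariate, and the other was Pck1 in SH rats with the 10th percentile as a covariate (0.617). The 1 called member difference, Car3 (first probe set) between the strains in SO2, kept its sign and was called under 27 of 27 other choices. In that comparison 2 member probe sets were called with quantile normalization and with the 10th percentile as a covariate. The same count of 2 was found without SD air replicate 1, SD air replicate 4 or SD SO2 replicate 1. Nothing is read from these counts. Several uncalled differences changed sign. With the title number in the fit these included Aqp7 (-0.171) and Lipe (0.00788) in SH rats and Aqp7 between the strains in air (0.222). For SH against SD rats in air the count of called probe sets was 0, and it was 5 with an offset of 64, 1 without the filter and 1 with actin ratio added to the fit, a choice made after seeing the data; the cause was not tested. Leaving out each array gave 0 to 86, with 86 without SD air replicate 2 and 1 without SH air replicate 1. For SH against SD rats in SO2 the count was 90, and 50 to 115 when each array was left out (50 without SH SO2 replicate 3, 57 without SH SO2 replicate 2, 58 without SD SO2 replicate 4). For SO2 in SH rats it was 0, and 0 to 1 (1 without SH SO2 replicate 4). For SO2 in SD rats it was 0, and 0 to 3 (3 without SD air replicate 4, 1 without SD air replicate 3 and 1 without SD SO2 replicate 1). With the replicate block the counts were 86 for the strains in SO2 and 0 in the other 4 comparisons, so the pairing changed none of them by over 1.5 times. Plin1 lies closest to background among the members, which limits its values.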
